A study of Mus musculus with 2 samples.

Results

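The bone morphogenetic protein (BMP) and activin pathway is described here in cells of the mouse embryonic forelimb at E13.5, through 44 genes of 22096 symbols in the deposited tables. The genes were listed by name: 12 ligands, 11 receptors and co-receptors, 6 Smads, 4 Id genes and 11 antagonists. All 44 symbols were present, in 50 transcript rows, and none of those rows had a failed or low-data status. The study compared 2 populations sorted by flow cytometry from embryos of mixed strain background that carry ScxGFP, a green fluorescent reporter under regulatory sequence of *Scx*. *Scx* encodes scleraxis, a basic helix-loop-helix factor that marks progenitors of tendon and ligament. The ScxGFP-positive and the ScxGFP-negative cells carry no labelled treatment, came from forelimbs of the same age, and gave 1 library each, from 6 pooled forelimbs (3 pairs). The negative population holds forelimb cells without the reporter and so a mixture of tissues.

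BMP and activin ligands are secreted dimers that bring together type I and type II serine/threonine kinase receptors. BMP receptors phosphorylate Smad1, Smad5 and Smad9, activin receptors phosphorylate Smad2 and Smad3, and both groups enter the nucleus with Smad4. The Id genes, which encode partners that keep basic helix-loop-helix factors from binding DNA, are classical BMP targets, and Smad6 and Smad7 are inhibitors that the pathway induces. Secreted antagonists such as gremlin, noggin and follistatin bind the ligands outside the cell. In the limb, BMPs act in patterning, cartilage formation, interdigital cell death and the bone ridges where tendons attach, and BMP antagonism is known to favour *Scx*-expressing progenitors.

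Levels are the deposited FPKM, a count of fragments scaled to transcript length and library size, added up over each gene's transcripts. Ratios are log2((positive FPKM + 1) / (negative FPKM + 1)), a scale that shrinks differences between low levels. With 1 library a group there was no replicate and no test, so each difference describes these 2 libraries. The level of *Scx* itself was 134 FPKM with the reporter and 1.69 without it. Aligned sequence on transcripts came to 0.687 and 0.875 gigabases. A gene counted as measured with at least 1 FPKM in one library or the other, which held for 12096 genes, and their median log2 ratio was -0.27. Because of that shift, directions are also given under 5 other scalings: the median ratio set to 1, equal upper quartiles, and FPKM rescaled to equal sums (TPM) with all genes, without haemoglobin genes and without transcripts shorter than 200 bases. In such pools fewer cells of a type and less RNA per cell cannot be told apart.

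The stretches upstream of the genes whose levels differed by 2-fold, and of the Id genes, are shown first, since these members carry the differences described below. Each is the 250 bases before the transcript start, 5′ to 3′ on the gene's strand, from the RefSeq promoter table for build GRCm38.p6, which is not the build of the expression tables. Capitals mark 2 motifs of 6 letters that read the same on both strands: GGCGCC, a GC-rich element that BMP-responsive Smads can bind, and CANNTG, the E-box that scleraxis and other basic helix-loop-helix factors bind. The table matched 31 of the 44 genes, with 37 starts; *Bmp2*, *Bmp3*, *Bmp7*, *Acvrl1*, *Smad4*, *Smad7*, *Id1*, *Nog*, *Chrdl1*, *Chrdl2*, *Fst*, *Bambi* and *Rgma* were not matched.
Grem1 (chr2:113758649-113758898, minus strand): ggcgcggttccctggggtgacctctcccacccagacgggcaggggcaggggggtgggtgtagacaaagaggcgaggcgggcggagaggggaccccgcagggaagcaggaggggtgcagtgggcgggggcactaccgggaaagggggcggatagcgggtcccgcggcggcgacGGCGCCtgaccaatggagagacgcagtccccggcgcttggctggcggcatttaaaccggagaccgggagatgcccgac
Nbl1 (chr4:139092971-139093220, minus strand): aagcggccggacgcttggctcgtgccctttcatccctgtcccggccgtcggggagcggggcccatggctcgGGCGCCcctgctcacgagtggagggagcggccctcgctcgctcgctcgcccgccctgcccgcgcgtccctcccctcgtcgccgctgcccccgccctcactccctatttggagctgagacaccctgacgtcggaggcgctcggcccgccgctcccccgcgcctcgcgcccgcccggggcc
Gdf10 (chr14:33923337-33923586, plus strand): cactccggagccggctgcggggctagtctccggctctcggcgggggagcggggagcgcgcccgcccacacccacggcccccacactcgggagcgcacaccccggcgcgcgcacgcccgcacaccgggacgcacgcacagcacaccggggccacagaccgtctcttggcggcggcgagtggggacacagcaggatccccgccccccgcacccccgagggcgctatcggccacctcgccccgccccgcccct
Mstn (chr1:53061390-53061639, plus strand): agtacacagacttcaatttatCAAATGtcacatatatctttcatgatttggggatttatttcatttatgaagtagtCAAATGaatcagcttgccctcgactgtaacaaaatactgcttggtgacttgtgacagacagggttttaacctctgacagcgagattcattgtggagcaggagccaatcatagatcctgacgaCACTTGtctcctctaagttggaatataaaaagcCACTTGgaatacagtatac
Acvr1b (chr15:101173822-101174071, plus strand): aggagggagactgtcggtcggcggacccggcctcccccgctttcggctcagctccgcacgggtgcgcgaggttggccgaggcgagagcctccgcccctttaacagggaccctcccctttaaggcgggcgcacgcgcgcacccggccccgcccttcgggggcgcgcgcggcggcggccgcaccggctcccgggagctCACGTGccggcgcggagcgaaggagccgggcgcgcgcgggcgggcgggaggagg
Id2 (chr12:25096093-25096342, minus strand): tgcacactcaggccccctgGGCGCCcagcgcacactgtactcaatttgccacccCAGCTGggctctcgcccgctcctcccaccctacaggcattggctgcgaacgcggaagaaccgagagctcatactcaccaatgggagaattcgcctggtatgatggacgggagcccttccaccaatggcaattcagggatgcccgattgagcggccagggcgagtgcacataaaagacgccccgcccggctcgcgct
Id3 (chr4:136143572-136143821, plus strand): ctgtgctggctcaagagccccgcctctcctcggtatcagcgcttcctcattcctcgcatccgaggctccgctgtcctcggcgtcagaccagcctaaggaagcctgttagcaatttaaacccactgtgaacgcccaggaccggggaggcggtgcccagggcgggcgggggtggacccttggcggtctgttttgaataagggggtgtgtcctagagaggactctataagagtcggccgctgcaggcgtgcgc
Id4 (chr13:48260866-48261115, plus strand): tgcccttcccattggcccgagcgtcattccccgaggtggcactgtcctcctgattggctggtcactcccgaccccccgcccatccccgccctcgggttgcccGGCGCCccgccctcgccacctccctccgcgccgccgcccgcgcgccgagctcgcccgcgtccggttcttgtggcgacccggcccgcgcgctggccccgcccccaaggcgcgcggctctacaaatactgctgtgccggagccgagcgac

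GGCGCC was present upstream of *Grem1*, *Nbl1*, *Id2* and *Id4*, once each, and not in these windows of *Gdf10*, *Mstn*, *Acvr1b* or *Id3*. Of the 37 member promoters 10 held it, 27.0%, against 9.59% of all 32841 promoters of this length. The member promoters were also richer in G and C, with a median of 66.8% against 52.4%. Among promoters of 60 to 70% GC the motif was in 4 of 16 of the members' and 19.98% of all, and at 70% GC and above in 6 of 14 of the members' and 38.5% of all, so the share among the members was near that of promoters of like GC content. An E-box was present in 15 of 37 member promoters, 40.5%, against 66.2% of all. Here too the share moved with GC content, to 56.8% of all promoters at 60 to 70% GC and 41.8% at 70% and above, where 7 of 16 and 4 of 14 of the members' held one. The promoter of *Mstn*, at 38.4% GC, held 4 E-boxes, while those of *Grem1*, *Nbl1* and *Gdf10*, at 72.0%, 77.6% and 78.8% GC, held none. Windows of the same gene can overlap, as for *Smad5*, *Rgmb* and *Bmpr1b*, and an E-box of *Smad5* was counted more than once. The promoters counted are thus not all separate stretches. These matches describe letters in a short window and are no evidence of binding.

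Of the 44 genes 37 were measured. Higher by 2-fold or more in the ScxGFP-positive library were 7 of them (18.9%): the antagonist genes *Nbl1*, *Grem1* and *Fst*, the ligand genes *Gdf10*, *Bmp3* and *Mstn*, and the co-receptor gene *Rgma*. Lower by as much were 2 (5.41%), the pseudoreceptor gene *Bambi* and the type I activin receptor gene *Acvr1b*. Over all measured genes 4.03% were higher by as much and 9.98% were lower. The median log2 ratio of the 37 was -0.045, and 17 of them had a ratio above 0 (45.9%), as did 26.2% of all measured genes. The sign of that median turned with the scaling, to between 0.20 and 0.50 under the 5 others, where the median of all genes lay between -0.039 and 0.22. All 7 higher genes and *Bambi* kept their 2-fold difference under every one of these scalings, whereas *Acvr1b* was just short of it in one, at -0.99 with TPM without short transcripts. *Rgma*, at 1.01, and *Mstn*, at 1.06, lay just inside the 2-fold limit, and *Bmp5*, at -0.98, and *Fstl1*, at 0.94, lay just outside it.

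**Figure D1:**
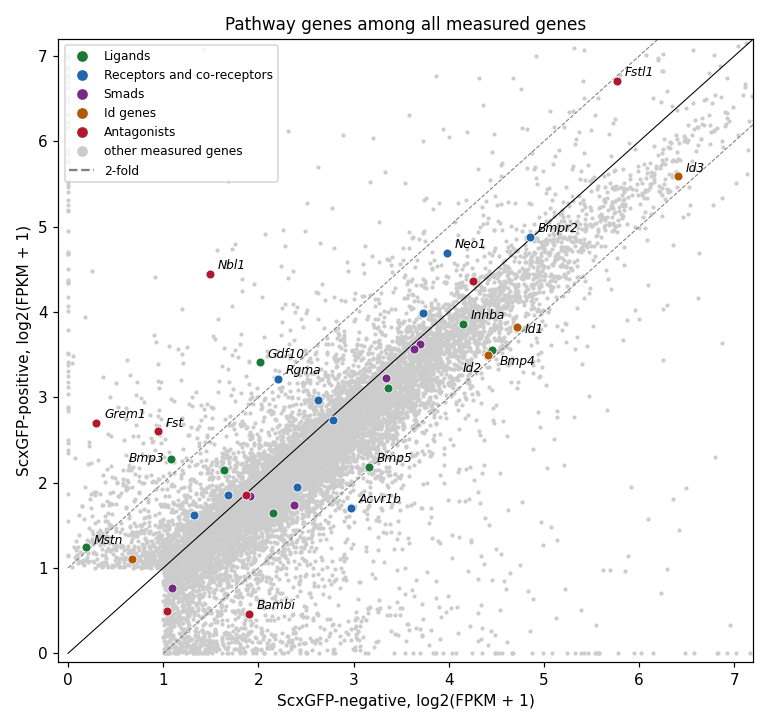
Level of each gene in the ScxGFP-negative (x axis) and ScxGFP-positive (y axis) library, both as log2(FPKM + 1), for 12096 measured genes (grey; some lie beyond the axes) and the 37 measured pathway genes (coloured by role), with the line of equal levels and dashed 2-fold lines. *Nbl1*, *Grem1* and *Fst* lie above the upper dashed line, *Bambi* and *Acvr1b* below the lower one, and *Id1*, *Id2*, *Bmp4* and *Bmp5* just inside the lower one.

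Ligand genes went both ways. *Bmp4*, which encodes a ligand that acts throughout limb development and later at tendon attachment sites, stood at 10.7 FPKM in positive and 21.0 in negative cells (NM_007554, mm9 chromosome 14, 47003196 to 47010274). *Bmp5*, a ligand gene of skeletal condensations, stood at 3.54 against 7.94 FPKM. Both were thus lower in positive cells, at 51.1% and 44.6% of the negative level, and both ratios stayed below 0 under the 5 other scalings. *Bmp7* was nearer to equal, at 7.61 against 9.26 FPKM, and its ratio of -0.25 was above 0 under all 5. *Bmp2*, also a ligand gene of cartilage and bone formation, had a ratio above 0 as deposited and under all 5, at 3.42 FPKM in positive and 2.11 in negative cells (log2 ratio 0.51, and 1.06 with TPM).

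The ligand genes above 2-fold were of other branches. *Gdf10*, encoding a protein close to BMP3 and also known as BMP3B, had 9.62 FPKM in positive against 3.05 in negative cells (log2 ratio 1.39; NM_145741, chromosome 14, 34736773 to 34748468). *Bmp3*, whose product opposes signalling by other BMPs, stood at 3.86 against 1.12 FPKM (1.195; NM_173404, chromosome 5, 99283458 to 99309979). These 2 related genes were both higher in positive cells, at 315% and 344% of the negative level. Some other related ligand genes of the list went opposite ways: *Bmp2* had a ratio above 0 and *Bmp4* one below, and *Mstn* and *Gdf11* likewise, at 1.06 and -0.51. *Bmp5* and *Bmp7* were both below 0 as deposited, at -0.98 and -0.25, though *Bmp7* was above 0 under the other scalings. *Mstn*, encoding myostatin, a limiter of muscle growth, stood at 1.38 against 0.141 FPKM, the latter on about 906 aligned bases, so its ratio of 1.06 is poorly bounded. The 10 skeletal muscle marker genes were higher in positive cells as well, with a summed 156.7 FPKM in positive and 19.96 in negative cells, and their part in the *Mstn* value was not tested.

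*Inhba*, which encodes the subunit of activin A, held the highest level of any ligand gene in positive cells, at 13.6 FPKM, and the second highest in negative cells, at 16.7. Its ratio of -0.28 was above 0 under 4 of the 5 other scalings. *Gdf11*, a myostatin relative of axial patterning, stood at 2.12 against 3.45 FPKM. The rest were not measured: *Bmp6* at 0.8002 against 0.248 FPKM, *Inhbb*, the activin B subunit gene, at 0.238 against 0.0345, and *Bmp8a*, listed at 0 in positive cells, against 0.292. Of 9 measured ligand genes 3 were higher by 2-fold, 0 lower and 6 neither. Their median was -0.25, which lay between -0.25 and 0.28 over the scalings.

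Some ligand genes held different shares of the summed ligand level in the 2 libraries. Summed FPKM of the 12 ligand genes was 56.9 in positive and 65.4 in negative cells. All summed levels given here use deposited FPKM, whose total over all genes was 161924 in positive and 220506 in negative cells. They were not recomputed under the other scalings. Sums near equality, or lower in positive cells by about as much as those totals, therefore give no direction. *Bmp4* was 18.9% of the positive and 32.1% of the negative sum, *Gdf10* 16.9% and 4.67%, and *Inhba* 23.8% and 25.6%. The 7 genes named as BMPs summed to 30.0 against 42.0 FPKM, about as far apart as the totals over all genes, so no direction is given. The activin, GDF and myostatin genes summed to 26.9 against 23.4. These sums are of transcripts and do not weigh how strongly each ligand acts.

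**Figure D2:**
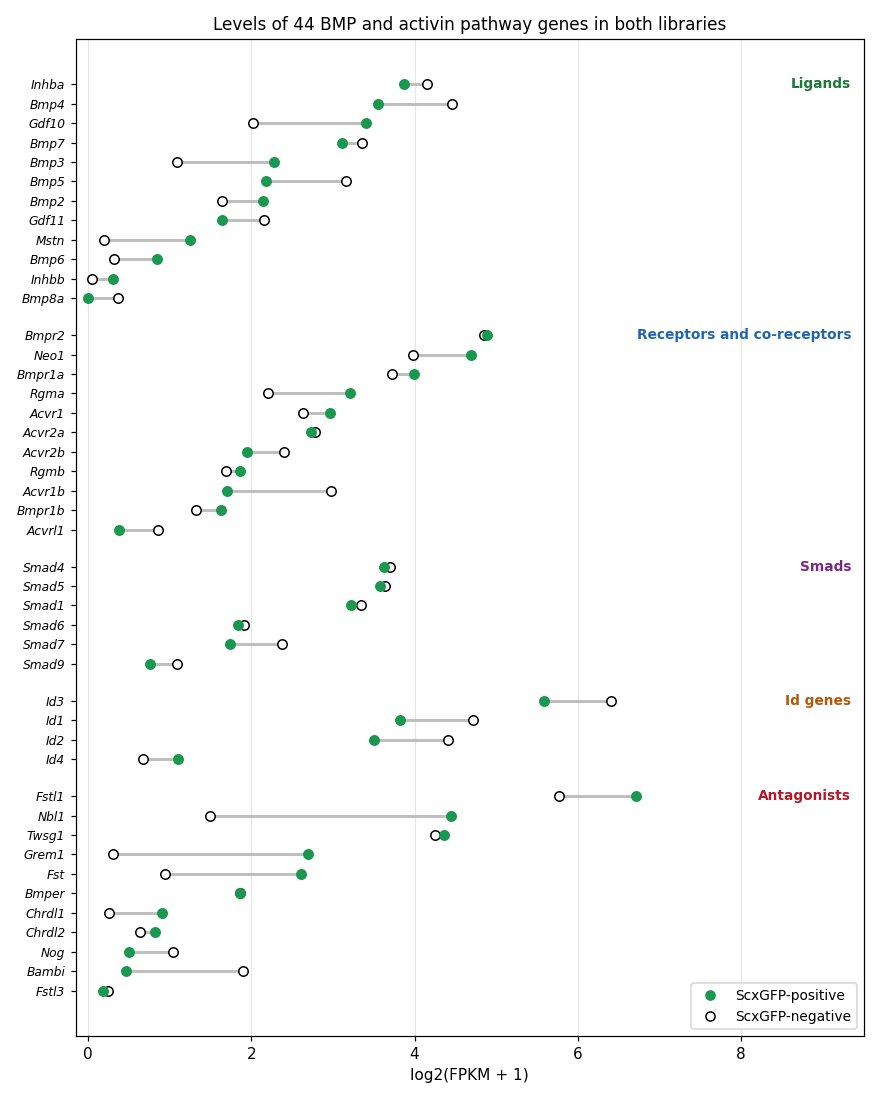
Level of each of the 44 genes as log2(FPKM + 1), ScxGFP-positive (filled) and ScxGFP-negative (open), grouped by role and ordered within a role by the positive level; a grey line joins the pair of values of a gene. The pairs of *Bmpr2*, *Acvr2a*, *Smad4*, *Smad5* and *Smad6* nearly coincide, while *Nbl1*, *Grem1* and *Fst* span the widest distances.

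Receptor genes of the BMP branch differed by less than 2-fold between the populations. *Bmpr2*, the type II BMP receptor gene, reached 28.5 FPKM in positive and 28.0 in negative cells and was the most abundant receptor transcript in both. The type I receptor genes *Bmpr1a*, at 14.9 against 12.3, *Bmpr1b*, a receptor gene of cartilage condensations, at 2.09 against 1.496, and *Acvr1* (also called ALK2), at 6.82 against 5.18, had log2 ratios of 0.26, 0.31 and 0.34. Under the other scalings these 4 ratios stayed above 0 and within 2-fold. They reached up to 0.59 for *Bmpr2*, 0.84 for *Bmpr1a*, 0.96 for *Bmpr1b* and 0.94 for *Acvr1*. Summed, these 3 type I genes reached 23.8 FPKM in positive and 18.9 in negative cells. With the type I genes *Acvr1b* and *Acvrl1*, described next, the sum over 5 was 26.4 against 26.6, and over the 3 type II genes of both branches it was 37.04 against 38.1.

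Among activin receptor genes *Acvr1b* differed. It encodes ALK4, the type I receptor of activin and of myostatin and GDF11, and stood at 2.26 FPKM in positive and 6.84 in negative cells (log2 ratio -1.26; NM_007395, chromosome 15, 101004556 to 101043032). The ratio was between -1.26 and -0.99 over the scalings. The type II genes *Acvr2a*, at 5.66 against 5.87 FPKM, and *Acvr2b*, at 2.85 against 4.29, had ratios of -0.045 and -0.46; that of *Acvr2a* was above 0 under all 5 other scalings. *Acvrl1*, encoding the endothelial receptor ALK1, was not measured, at 0.301 against 0.805 FPKM; it lies 28.8 kb from *Acvr1b*. The 10 endothelial marker genes summed to 3.74 FPKM in positive and 61.3 in negative cells, with *Cldn5* listed at 0 in the former. Their part in the receptor values was not tested.

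Among the 3 co-receptor genes of the list, 1 was higher by 2-fold in positive cells. *Rgma*, whose membrane-anchored product enhances BMP signalling and binds neogenin, stood at 8.28 FPKM against 3.62, a log2 ratio of 1.01 (NM_177740, chromosome 7, 80520406 to 80564785). *Neo1*, the neogenin gene, stood at 24.8 against 14.8 FPKM, with a ratio of 0.71 that passed 2-fold under 4 of the 5 other scalings (up to 1.30). *Rgmb* was close to equal, at 2.62 against 2.21. Summed, the 3 genes reached 35.7 FPKM in positive and 20.6 in negative cells, with *Neo1* the largest part of both sums. *Eng*, a co-receptor gene of the second list described further on, was lower, with a ratio of -1.69. Of 10 measured receptor and co-receptor genes 1 was higher by 2-fold, 1 lower and 8 neither, with a median of 0.22 (0.22 to 0.80 over the scalings).

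Of the 6 Smad genes 4 were nearly equal between the populations. *Smad4*, the common partner, stood at 11.4 FPKM in positive and 11.97 in negative cells. The BMP-regulated *Smad1* stood at 8.33 against 9.11 FPKM and *Smad5* at 10.9 against 11.5. The inhibitory *Smad6* stood at 2.58 against 2.77. As deposited, their ratios were -0.070, -0.12, -0.068 and -0.076, and all 4 were above 0 under each of the 5 other scalings, so no direction can be given.

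*Smad7* and *Smad9* were lower in positive cells under every scaling, though within 2-fold. *Smad7*, which encodes the inhibitor of both the BMP and the activin branch, stood at 2.33 FPKM against 4.18 (ratio -0.64, and between -0.64 and -0.27 over the scalings). *Smad9*, the least abundant of the BMP-regulated Smads, stood at 0.695 against 1.13. The order of levels was *Smad4*, *Smad5*, *Smad1* and at the end *Smad9* in both libraries. Of 6 Smad genes 0 passed 2-fold in either direction, and their median was -0.096 (-0.096 to 0.43).

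Among *Smad5* transcripts NM_001164042 was 10.3% of the gene's FPKM in positive cells, on about 16843 aligned bases, and 0.0345% in negative cells, on about 62. The lengths of the *Smad5* transcripts were 6585, 6608 and 6988 bases. How many reads told them apart is not known, so this division is uncertain. Among *Acvr1* transcripts NM_001110205 made up 80.3% in positive and 91.2% in negative cells, and the rest was mostly NM_007394. *Neo1* was mainly NM_001042752 in both, at 94.2% and 91.8%.

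**Figure D3:**
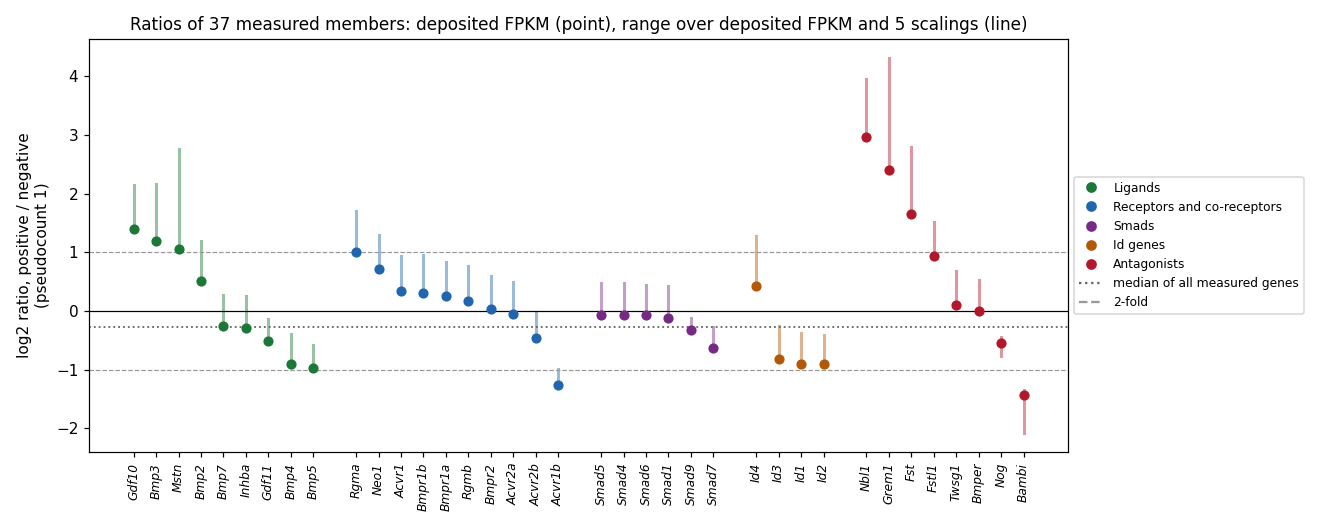
Log2 ratio of positive to negative level (pseudocount 1) for the 37 measured genes: points are the deposited FPKM, vertical lines the range over the deposited values and 5 other scalings, dashed lines 2-fold, and the dotted line the median of all measured genes at -0.27. The lines of *Smad1*, *Smad4*, *Smad5* and *Smad6* cross 0, whereas those of *Id1*, *Id2* and *Id3* lie below 0 and those of *Nbl1*, *Grem1* and *Fst* above 1.

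The 3 abundant Id genes had lower levels in ScxGFP-positive cells, by similar amounts, and this direction held under the 5 other scalings. *Id3* stood at 47.2 FPKM in positive and 83.9 in negative cells (NM_008321, chromosome 4, 135699737 to 135701307). *Id1* stood at 13.1 against 25.3 FPKM (NM_010495, chromosome 2, 152562010 to 152563146) and *Id2* at 10.3 against 20.2 (NM_010496, chromosome 12, 25778664 to 25780957). All 3 were between 50.9% and 56.3% of the negative level. Their log2 ratios of -0.82, -0.90 and -0.91 did not reach 2-fold, and under the other scalings they stayed below 0, the nearest being -0.26 for *Id3*, -0.38 for *Id1* and -0.40 for *Id2*.

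*Id4* was the exception, with 1.15 FPKM in positive against 0.593 in negative cells. Its ratio of 0.43 was above 0 under all scalings and passed 2-fold with TPM (1.13). *Id3* alone made up 65.8% of the Id sum in positive and 64.5% in negative cells, and *Id4* 1.60% and 0.456%. The order *Id3*, *Id1*, *Id2*, *Id4* was the same in both libraries. Of 4 Id genes 0 passed 2-fold in either direction, with a median of -0.86 (-0.86 to -0.32 over the scalings).

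Of the 44 genes, those with the highest ratios were 3 antagonist genes. *Nbl1*, which encodes DAN, a secreted BMP-binding protein of the gremlin family, had 20.8 FPKM in positive against 1.81 in negative cells (log2 ratio 2.96; NM_008675, chromosome 4, 138638207 to 138648885). *Grem1*, encoding gremlin 1, a BMP antagonist of the limb bud, stood at 5.50 against 0.230 FPKM, a ratio of 2.40 (NM_011824, chromosome 2, 113588832 to 113598805). *Fst*, the gene of the activin-binding protein follistatin, stood at 5.08 against 0.924 FPKM, a ratio of 1.66 (NM_008046, chromosome 13, 115242470 to 115248938). Of these, the negative value of *Grem1* rests on about 901 aligned bases, against 7630 for *Nbl1* and 5158 for *Fst*, so the fold of *Grem1* is the least well bounded. Over the scalings the ratios ranged from 2.96 to 3.95, from 2.40 to 4.31 and from 1.66 to 2.79.

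The order of the antagonist genes differed between the libraries accordingly. *Fstl1*, encoding an abundant follistatin-like glycoprotein of mesenchyme, was first in both, at 103.6 FPKM in positive and 53.5 in negative cells, 64.9% and 65.3% of the antagonist sum. Its ratio of 0.94 was just below 2-fold and above it under the 5 other scalings (up to 1.52). *Nbl1* came next in positive cells and was the fifth in negative cells. *Grem1* moved from the ninth place in negative cells to the fourth in positive cells. *Twsg1*, encoding twisted gastrulation, a modulator that can help or hinder BMPs, stood at 19.6 against 18.1 FPKM.

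Among genes of secreted BMP-binding antagonists, *Grem1*, *Nbl1*, *Nog*, *Chrdl1* and *Chrdl2* summed to 28.4 FPKM in positive and 3.85 in negative cells. *Nbl1* was the main part of this sum in positive cells. The sum leaves out *Twsg1*, at 19.6 against 18.1 FPKM, and *Bmper*, whose levels were nearly equal, so it does not stand for all BMP binders listed. *Nog* itself, the noggin gene, went the other way, at 0.415 FPKM in positive and 1.06 in negative cells (ratio -0.54, below 0 under all scalings). It counted as measured only through its negative value, just above 1 FPKM. The positive value rests on about 1822 aligned bases, so the difference is poorly bounded. The chordin-like genes were not measured, *Chrdl1* at 0.866 against 0.192 FPKM and *Chrdl2* at 0.763 against 0.549. *Fstl3*, a follistatin relative, was not measured either, at 0.135 against 0.187. *Bmper*, whose product binds BMPs and chordin, was equal at 2.63 and 2.65 FPKM.

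*Bambi*, the gene of a membrane pseudoreceptor that blocks BMP and activin receptors and is itself a BMP target, was the member with the lowest ratio. Its level was 0.376 FPKM in positive against 2.73 in negative cells (log2 ratio -1.44; NM_026505; -2.08 to -1.34 over the scalings), with about 4331 aligned bases behind the positive value. Of 8 measured antagonist genes 3 were higher by 2-fold, 1 lower and 4 neither, and the median was 0.52 (0.52 to 1.09). Summed over all 11, the antagonist level was 159.8 FPKM in positive and 81.9 in negative cells; without *Fstl1* it was 56.2 and 28.4.

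Other genes of the pathway were read from a second list of 56 genes, of which 30 were measured. At least 2-fold higher was 1 (*Pcsk5*), lower were 4 (*Msx1*, *Msx2*, *Eng* and *Pcsk6*) and 25 were neither, with a median of -0.087. Over all measured genes 4.03% were higher and 9.98% lower by as much, with a median of -0.27, so these counts lie near the general shares. *Sostdc1*, encoding a BMP and Wnt antagonist, was nearly equal at 12.4 against 14.2 FPKM. The chordin gene *Chrd* stood at 1.06 against 0.240 FPKM (0.73), within 2-fold.

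The homeobox genes *Msx1* and *Msx2*, BMP-responsive genes of distal limb mesenchyme and ectoderm, were lower in positive cells, at 1.12 against 8.24 FPKM and 2.003 against 19.8. Their log2 ratios of -2.12 and -2.79 were wider than those of *Id1*, *Id2* and *Id3*. The other targets listed, *Atoh8* and *Hey1*, were nearly equal, at 2.48 against 2.26 and 3.78 against 3.64 FPKM. *Eng*, the endothelial co-receptor gene endoglin, stood at 0.977 against 5.38. The convertase genes *Pcsk5* and *Pcsk6*, whose products process precursors of this ligand family, lay on opposite sides, at 3.83 against 0.842 and 3.60 against 14.5. All 12 intracellular genes of this list were within 2-fold, among them the activin-regulated *Smad2*, at 9.64 against 11.7 FPKM, and *Smad3*, at 10.4 against 10.5.

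Of 18 genes that flank the 9 members past 2-fold on mm9, 6 were measured, and 0 of these passed 2-fold in either direction. Over all measured genes 4.03% were higher and 9.98% lower by as much, so a count of 0 among 6 says little. *Grem1* lies 31.9 kb from *Fmn1*, the formin gene that holds limb enhancers of *Grem1*; *Fmn1* was not measured, at 0.163 FPKM in positive and 0.804 in negative cells. *Scg5*, on its other side, stood at 0.0211 against 0.177. *Gdf10* lies 5.76 kb from the ligand gene *Gdf2*, which stood at 0.0164 FPKM in positive cells and was listed at 0 in negative cells. *Nbl1* lies between *Htr6* (0.273 against 0.0352 FPKM) and 2310028O11Rik (3.79 against 4.56). No member past 2-fold overlaps another listed gene; *Bmp4*, *Bmp8a*, *Acvr2a* and *Fstl3* each overlap one, and the library chemistry does not mark strand.

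Lists of cell type markers differed between the libraries by wide margins. All 8 tendon markers had ratios above 0 and summed to 754 FPKM in positive and 113.8 in negative cells. Skeletal muscle markers (10 genes) were higher in positive cells too, at a summed 156.7 against 19.96 FPKM. All 9 measured muscle markers had ratios above 0. Summed epidermal (8 genes), macrophage (9) and erythroid (7) markers stood at 12.8 against 345, 10.98 against 365 and 155.7 against 6417 FPKM. Schwann cell markers (7 genes) summed to 4.56 against 39.2, and markers of osteoblasts and perichondrium (6) to 6.33 against 19.8. Of the latter only 3 were measured, *Runx2*, *Sp7* and *Dlx3*, all lower by 2-fold. Among the others *Alpl*, at 0.922 against 0.141 FPKM, and *Ibsp*, at 0.181 and listed at 0 in negative cells, went the other way. *Spp1* stood at 0.265 against 0.469. Cartilage markers (10 genes) summed to 115.0 against 83.3, mostly through *Col2a1* (68.1 against 40.4) and *Col11a1* (19.0 against 5.36), whereas 5 of the 8 measured ones, *Sox9* among them at 13.9 against 18.9, had ratios below 0, with a median of -0.25. The ranges of single epidermal, macrophage and endothelial markers in positive cells were 0.404 to 4.67, 0.125 to 2.82 and 0 to 1.02 FPKM. Several lower members, such as *Bambi*, *Id1*, *Id3*, *Smad7* and *Bmp4*, are also expressed in endothelium, ectoderm or perichondrium, and the part of those cells in their values was not tested. The part of muscle cells in the values of the higher members was not tested either.

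**Figure D4:**
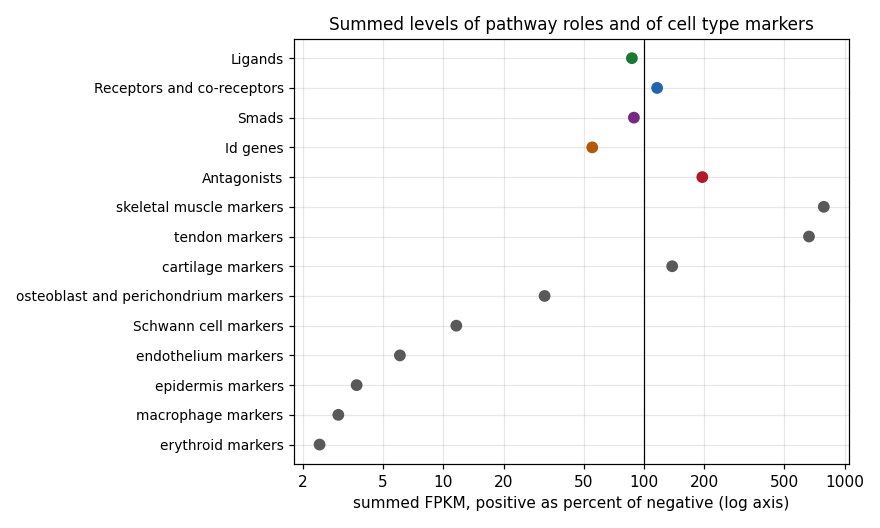
Summed FPKM in ScxGFP-positive cells as a percentage of that in ScxGFP-negative cells, on a log axis, for the 5 roles of the pathway (coloured) and 9 lists of cell type markers (grey); the vertical line marks 100%. The pathway roles lie between 55.2% (Id genes) and 195% (antagonists), whereas the marker lists lie between 2.43% (erythroid) and 785% (skeletal muscle). Sums are of deposited FPKM without rescaling, so the side of 100% is not settled for roles near that line.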

How the data were processed

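RNA of the sorted cells was made into cDNA by NuGEN's Ovation RNA-Seq v2 chemistry, per the labels' protocols, and sequenced as 1 library per population. Bowtie 0.12.7 and TopHat 1.4.1 and build mm9 are named in the submitters' processing notes; the program that estimated abundance and its version are not given in the sources used here. The file headers show that the deposited tables give the length, coverage, FPKM and status of each transcript. FPKM and the coverage signal are the authors' deposited values, per the file headers, coverage being the depth of aligned bases over a transcript; coverage times length gives the aligned bases printed with low values. Coverage was FPKM times 2.28 in the positive library and FPKM times 2.39 in the other. Read numbers are not known, so no interval is given.

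Rows were paired between the tables by transcript and position, since their order differs. FPKM was summed per symbol, and a symbol with a failed row was set to missing. Ratios used a pseudocount of 1, a minimum of 1 FPKM in one library and a limit of 2-fold, with Python 3.11.15 and pandas 2.3.3. Positions are 1-based on mm9. The steps were tested on made-up levels of 12096 genes, where 200 of 200 known changes were recovered. That test checks the calculation and gives no error rate for the 2 libraries. The pathway genes, the second list and the marker lists were chosen with earlier results of these data known; 1 gene of the second list is not reported here and was left out of its counts. Named are all 44 pathway genes, those of the second list past 2-fold with others of it for context, chosen after their values were seen, and the flanking genes. Alternatives were pseudocounts of 0.1 and 5, no minimum or 5 FPKM, 5 scalings (with the measured genes kept), the top transcript alone, and rows of status OK alone.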

Additional observations from a re-analysis of the deposited data

How the results depend on the processing

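The count of pathway genes at least 2-fold higher, 7, was 2 with a pseudocount of 5, namely *Nbl1* and *Grem1*. There 1.84% of all measured genes were higher. It was 11 with TPM and 11 with TPM without short transcripts, where 9.37% and 10.01% of all measured genes were higher. It was 5 with a minimum of 5 FPKM and 9 with the median ratio set to 1 (5.20% and 5.92% of all). With equal upper quartiles it was 8, and with TPM without haemoglobin genes 10 (5.56% and 8.54% of all). The count of lower genes, 2, was 4 with a pseudocount of 0.1, 0 with a pseudocount of 5, 1 with a minimum of 5 FPKM and 1 with TPM without short transcripts, where 14.7%, 3.26%, 10.6% and 8.48% of all genes were lower. The median log2 ratio, -0.045, was -0.052 and -0.028 with pseudocounts of 0.1 and 5, -0.025 without a minimum, 0.25 with the median ratio set to 1, 0.20 with equal upper quartiles, and 0.38, 0.30 and 0.50 with TPM, TPM without haemoglobin genes and TPM without short transcripts. TPM values are larger numbers than FPKM, so the pseudocount weighs less there. No gene past 2-fold changed sign under any alternative. Over all alternatives 24 of 393 single-gene values crossed the 2-fold limit, 7 of them with a pseudocount of 5. The top transcript alone and rows of status OK alone left both counts as they were. No paired analysis was possible because each group has 1 library. Depth limits low values most: *Grem1* and *Mstn* rest on few aligned bases in negative cells.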
